A study of Homo sapiens with 3 samples.

Results

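The 8 genes described here form the MET receptor axis as it can be read in 1 bladder cancer cell line: the receptor gene MET, its reported transcriptional activator MACC1, the ligand gene HGF, the related receptor gene MST1R, the membrane protease genes ST14 and TMPRSS2, and the protease inhibitor genes SPINT1 and SPINT2. They were taken by symbol from a deposited table of 50867 genes, and each symbol matched 1 row, so that all 8 were found. The libraries came from the established bladder cancer line UM-UC-3 (human) after infection with lentivirus for a scramble hairpin (group shControl, n = 1) or for a hairpin against the long non-coding RNA BLACAT2 (shBLACAT2, n = 2, with 1 library for shRNA 1 and 1 for shRNA 2). All 3 lines were infected in the presence of polybrene and kept under puromycin for 2 weeks before polyA+ RNA was sequenced, so the control carries the vector and the selection as well. The series asked which genes depend on BLACAT2, and the 8 genes are set out here to show whether MET was higher where MACC1 was higher.

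MET is a receptor tyrosine kinase, and HGF, also called scatter factor, is its ligand. HGF is secreted as an inactive single chain, typically by fibroblasts and other stromal cells, and has to be cut by a serine protease before it can switch on MET in neighbouring epithelial cells. Matriptase, the product of ST14, is a membrane-bound protease that can make this cut, and the Kunitz-type inhibitors HAI-1 and HAI-2, the products of SPINT1 and SPINT2, block it. MST1R encodes RON, the receptor for macrophage-stimulating protein and the nearest relative of MET. MACC1 was found as a gene associated with metastasis in colon cancer and has been reported to bind the MET promoter and raise its transcription.

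Facts of the whole table bear on how these values can be read. The libraries had total counts of 16424422 (control), 17670199 (shRNA 1) and 16216947 (shRNA 2). BLACAT2, listed as LINC00958, stood at 73.5% of the control with shRNA 1 (95% counting interval 66.8 to 80.8) and at 99.6% with shRNA 2 (91.1 to 109), so directions below are those of the library labels, since no loss of the target was seen with shRNA 2. Epithelial keratin genes were abundant in all libraries (KRT7 had 19944, 20236 and 13229 counts). Of the urothelial plaque genes, UPK1B (306, 2311 and 923 counts, log2 folds 2.67 and 1.40) and UPK2 (35, 108 and 104, 1.34 and 1.34) were higher with both hairpins, while UPK1A and UPK3A had at most 1 count in any library. Of 12 urothelial and epithelial markers, 10 were measured. At 2-fold with both hairpins, 3 were higher, 0 lower and 7 neither (5.29% and 4.5% of all genes were higher and lower). Their median log2 folds were 0.95 and −0.01. KRT18 was below the control with both hairpins (−0.25 and −0.52), and KRT5 was far below it with shRNA 2 (−1.90). Of 8 fibroblast markers, 2 passed the filter on low values and the sum of all 8 was 19.7, 1.5 and 3.6 CPM (a read count relative to the scaled size of its library). Leukocyte markers summed to between 1.4 and 18.7 CPM and endothelial markers to between 3.0 and 7.5 CPM. Most of the highest leukocyte sum came from ITGAM (19, 6 and 288 counts), while PTPRC had 0, 3 and 4. The libraries are of 1 cell line, so these markers are read as transcripts of UM-UC-3 cells, not as other cell types. In bulk RNA of a line, fewer cells with a transcript and less of it per cell cannot be told apart.

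Values in this account are read counts, CPM with library sizes scaled by edgeR's TMM factors, or, where genes are compared with each other, the authors' FPKM, which divides a count by gene length and library total. Levels compared between genes depend on the lengths the authors used. The change of such a ratio between libraries does not. A ratio to the control is that of TMM-scaled counts, and its 95% interval is an exact conditional binomial interval that covers counting error only. The 8 genes were selected on results of these same libraries, chiefly by the high fold of MACC1 over the control, so their differences from the control are given as a description, with no test.

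MACC1 was far higher with either BLACAT2 hairpin than with the scramble hairpin. MACC1 (ENSG00000183742, a protein-coding gene with 5 annotated transcripts on the minus strand of chromosome 7, 20134655 to 20217404, hg38) was counted 126 times in the control library, 3101 times with shRNA 1 and 2400 times with shRNA 2. After scaling these were 8.30, 173 and 139 CPM. The ratio to the control was 20.8 with shRNA 1 (interval 17.4 to 25.1) and 16.8 with shRNA 2 (interval 14 to 20.2), a mean log2 fold of 4.20 ± 0.22 (SD, n = 2). Both hairpin libraries lay far above the control, and the distance between them was small beside that (shRNA 2 over shRNA 1, ratio 0.806, interval 0.763 to 0.850). Ranked by the smaller of its folds, MACC1 stood 9th among the 15132 genes tested. Per length, it moved from above 20.6% of the tested genes in the control to above 87.7% with shRNA 1 and 84.6% with shRNA 2. The antisense gene MACC1-AS1 had 0, 0 and 1 counts, and a sense-overlapping transcript that shares exons with MACC1 (AC005062.1 in the annotation) had 1, 3 and 13. These genes had few counts of their own, but how reads shared with MACC1 were assigned is not known.

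MET did not show the MACC1 pattern. MET (ENSG00000105976, 7 annotated transcripts, plus strand of chromosome 7, 116672390 to 116798386) was counted 5572 times in the control library, against 4708 (shRNA 1) and 5478 (shRNA 2), or 367, 262 and 317 CPM. The control library was thus the highest of the 3 on the scaled counts. The ratio to the control was 0.714 with shRNA 1 (interval 0.687 to 0.742) and 0.865 with shRNA 2 (0.833 to 0.898), with a mean log2 fold of −0.35 ± 0.20 (SD, n = 2). With library totals in place of TMM, log2 folds of MET were −0.35 and −0.01, which leaves no visible difference with shRNA 2. MET was already among the most abundant mRNAs of the control, above 95.4% of tested genes per length, and it stayed above 93.0% and 95.2% of them in the hairpin libraries. The level of MET protein and its phosphorylation were not measured.

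Set side by side within each library, where scaling plays no part, the relation of MET to MACC1 was far from that in the control in both hairpin libraries. The FPKM of MET was 47.2 times that of MACC1 in the control, 1.62 times with shRNA 1 and 2.44 times with shRNA 2. Relative to MACC1, MET was therefore 29.1-fold lower with shRNA 1 (ratio of ratios 0.0343, interval 0.0284 to 0.0412) and 19.4-fold lower with shRNA 2 (0.0516, interval 0.0426 to 0.0620). Of the hairpin libraries, shRNA 1 had the higher MACC1 and the lower MET. No correlation is given over 3 libraries.

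**Figure D1:**
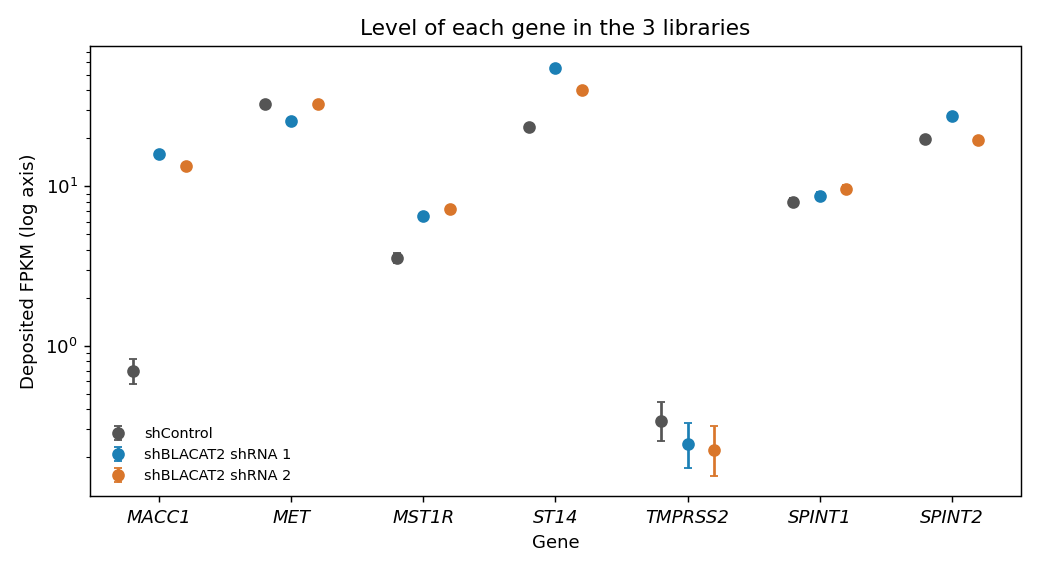
Deposited FPKM (log axis) of 7 of the 8 genes in the 3 libraries, with exact Poisson 95% intervals of the counts as bars (counting error only). MACC1 is at 0.695 FPKM in the control and at 15.9 and 13.4 with the hairpins, while MET stays between 25.8 and 32.8. HGF, with at most 2 counts in a library, is not drawn.

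The stretches of DNA before the start sites of these genes are shown because MACC1 is reported to act on the MET promoter and because MACC1 and MET differed in their response. RefSeq promoter entries (GRCh38.p14) were held for 5 of the 8 genes, MACC1, MET, HGF, MST1R and SPINT1, and the 250 bases before the start site are printed 5′ to 3′ on the gene's own strand for MACC1 (chr7:20217385-20217634, minus strand) and MET (chr7:116671946-116672195, plus strand). Capitals mark motif matches, CAGGTG on either strand (CACCTG when read on the other one) in MACC1 and GGGCGG in MET.
MACC1: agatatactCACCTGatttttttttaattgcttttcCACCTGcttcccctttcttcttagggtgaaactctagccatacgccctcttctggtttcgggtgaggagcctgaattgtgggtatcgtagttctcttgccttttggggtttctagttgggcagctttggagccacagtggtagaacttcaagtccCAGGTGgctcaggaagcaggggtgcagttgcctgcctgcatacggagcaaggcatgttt
MET: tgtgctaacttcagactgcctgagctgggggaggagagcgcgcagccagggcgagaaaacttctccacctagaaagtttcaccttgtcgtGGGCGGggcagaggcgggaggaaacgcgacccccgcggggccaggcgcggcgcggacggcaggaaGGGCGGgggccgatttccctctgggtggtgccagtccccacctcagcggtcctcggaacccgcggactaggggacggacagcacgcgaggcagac

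These windows differ in composition. MET has 68.4% G and C and 24 CpG dinucleotides, and MACC1 49.2% and 4, against medians of 58% and 11 over 35116 RefSeq promoter entries. The E-box CAGGTG, a sequence read by the ZEB and SNAIL repressors of epithelial genes, occurs 3 times before MACC1 and not before MET. At least 1 match is found in 17.5% of all promoter windows of this length, and 3 or more in 0.464%. The Sp1 motif GGGCGG occurs 2 times before MET and not before MACC1. At least 1 is found in 42.6% of windows and 2 or more in 24.3%. The letters TGANTCA (AP-1, in 6.57% of windows), TTNNGNAA (C/EBP, 33.2%), CCGGAA (ETS, 14.5%) and AACNNGTT (Grainyhead-like, 3.0%) were searched on both strands and are in neither window. CAGGTG and GGGCGG are not particular to MACC1 and MET. Before MST1R, CAGGTG occurs 1 time and GGGCGG 4 times. SPINT1 has 2 entries, with GGGCGG 3 times in entry 1 and CAGGTG 1 time in entry 2. No binding was measured here, and a match is a description of letters only. The RefSeq start site lies 20 bases inside the deposited MACC1 gene and 194 bases upstream of the deposited MET gene.

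The other receptor, MST1R (ENSG00000164078; chromosome 3, 49887002 to 49903873, minus strand), encodes RON. The control library had 802 counts of MST1R, and the hairpin libraries 1576 (shRNA 1) and 1603 (shRNA 2). Both hairpin libraries were above the control and close to each other, with ratios of 1.66 (interval 1.52 to 1.81) and 1.76 (1.61 to 1.92), or a mean log2 fold of 0.77 ± 0.06 (SD, n = 2). In the authors' FPKM, MST1R stood at 0.108 of the MET level in the control and at 0.252 and 0.220 with the hairpins, shares that depend on the gene lengths used. Relative to MET it was 2.33-fold (interval 2.12 to 2.56) and 2.03-fold (1.85 to 2.23) higher, and MET remained the more abundant receptor in every library. Antisense genes that overlap exons of MST1R had between 0 and 8 counts.

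The ligand was near absent from these cells. HGF (ENSG00000019991; chromosome 7, 81699006 to 81770438, minus strand) was counted 0 times in the control, 0 times for shRNA 1 and 2 times for shRNA 2. A count of 0 allows up to 3 counts, which is 0.198 CPM in the control and 0.167 CPM with shRNA 1, and the 2 counts with shRNA 2 are 0.116 CPM. HGF did not pass the filter of a mean of 1 CPM, and no fold is given. MST1, the gene of the RON ligand, was low as well, with 28, 38 and 122 counts (log2 folds 0.19 and 1.87), the highest in the library of shRNA 2.

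ST14, which encodes matriptase, was higher than the control in both hairpin libraries. ST14 (ENSG00000149418; chromosome 11, 130159562 to 130210376, plus strand) had 1951 counts in the control against 4916 (shRNA 1) and 3307 (shRNA 2), or 129, 274 and 192 CPM. The ratios to the control were 2.13 (interval 2.02 to 2.25) and 1.49 (1.41 to 1.58), and the library of shRNA 1 was the highest. The mean log2 fold of 0.83 ± 0.36 (SD, n = 2) exceeded the spread between the hairpins, although the library of shRNA 2 held only 0.700 of the level with shRNA 1 (interval 0.670 to 0.732).

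TMPRSS2, the gene of another membrane serine protease of the same family, best known from prostate epithelium, was barely expressed. TMPRSS2 (ENSG00000184012; chromosome 21, 41464551 to 41531116, minus strand) had 51 counts in the control against 39 (shRNA 1) and 33 (shRNA 2). The ratios were 0.646 (interval 0.415 to 1.00) and 0.569 (0.356 to 0.899), and these wide intervals come from the low counts. ST14 exceeded TMPRSS2 per length 69.1-fold in the control, 228-fold with shRNA 1 and 181-fold with shRNA 2.

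The matriptase inhibitors did not follow the protease. SPINT1 (HAI-1; ENSG00000166145; chromosome 15, 40844018 to 40858207, plus strand) had 974, 1142 and 1161 counts in the order control, shRNA 1, shRNA 2, or 64.2, 63.6 and 67.3 CPM. The 3 libraries lay close together, with ratios to the control of 0.991 (interval 0.909 to 1.08) and 1.05 (0.962 to 1.14). The antisense gene SPINT1-AS1, which overlaps its exons, had 13, 24 and 20 counts. SPINT2 (HAI-2; ENSG00000167642; chromosome 19, 38244035 to 38292614, plus strand) had 3207, 4746 and 3120 counts, or 211, 264 and 181 CPM. SPINT2 lay above the control with shRNA 1 (ratio 1.25, interval 1.20 to 1.31) and below it with shRNA 2 (0.856, interval 0.814 to 0.899), so its mean log2 fold of 0.05 ± 0.39 (SD, n = 2) was smaller than the spread between the hairpins. For SPINT1 the sign with shRNA 1 depended on the scaling, with log2 folds of −0.01 with TMM, −0.04 with DESeq2's size factors and 0.12 with library totals.

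Protease and inhibitor were compared within each library as well. The FPKM of ST14 was 2.94 times that of SPINT1 in the control, 6.33 times with shRNA 1 and 4.19 times with shRNA 2. Against the control this relation was 2.15-fold higher with shRNA 1 (interval 1.94 to 2.38) and 1.42-fold higher with shRNA 2 (1.28 to 1.58). ST14 over SPINT2 was 1.18 in the control library and 2.00 and 2.05 in those of shRNA 1 and shRNA 2, changes of 1.70-fold (1.59 to 1.83) and 1.74-fold (1.62 to 1.88). The intervals for SPINT2 overlap between the hairpins, and ST14 and SPINT2 were both higher with shRNA 1 than with shRNA 2. The ratios within a library depend on the gene lengths behind the FPKM, and the changes between libraries do not. In the control, ST14 had 1951 counts and SPINT2 3207, with annotated exonic lengths of 4350 and 5199 bases. Which of them was the more abundant there thus depends on the lengths used. These are relations between mRNAs, and the proteins and their activity were not measured.

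**Figure D2:**
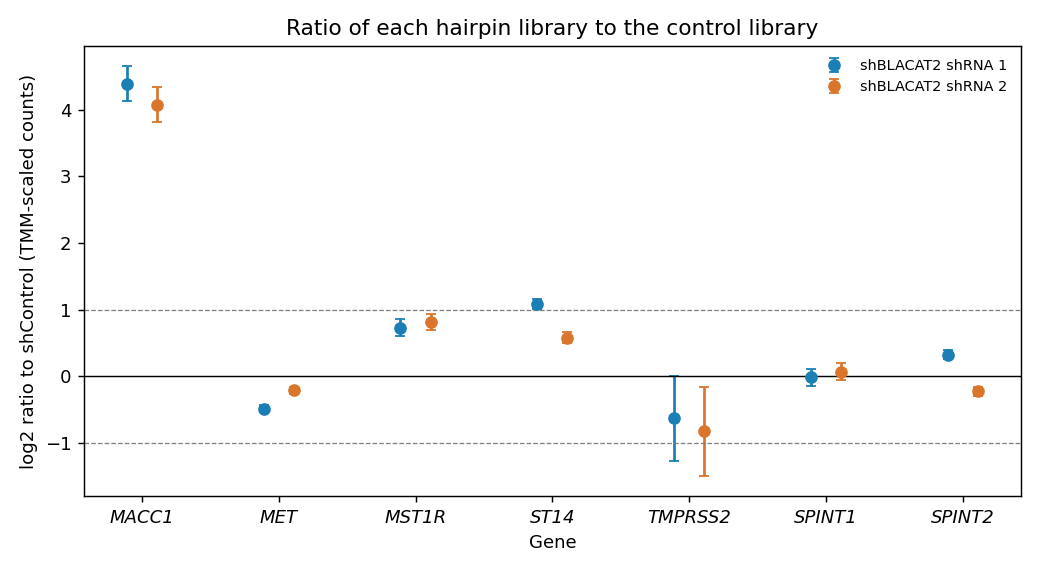
log2 ratio of TMM-scaled counts of each hairpin library to the control library for 7 genes, with 95% counting intervals as bars and dashed lines at 2-fold. MACC1 lies above 2-fold with both hairpins (ratios 20.8 and 16.8), MST1R and ST14 lie above 0, and MET lies below 0 with ratios of 0.714 and 0.865.

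The order of the 8 genes by the authors' FPKM changed between the libraries. In the control, MET (32.8 FPKM) stood first, followed by ST14 (23.5), SPINT2 (19.97), SPINT1 (7.98), MST1R (3.55), MACC1 (0.695), TMPRSS2 (0.340) and HGF, listed at 0. With either hairpin ST14 stood first, at 55.0 FPKM with shRNA 1 and 40.3 with shRNA 2, and MACC1 took the fourth place, ahead of SPINT1 and MST1R. SPINT2 (27.5) and MET (25.8) exchanged places with shRNA 1 only, while MET (32.7) stayed ahead of SPINT2 (19.7) with shRNA 2. The counting intervals of neighbours in this order did not overlap in any of the 3 libraries, but the spread between cultures was not measured for the control. These intervals do not cover the gene lengths, and with other lengths the order can differ. In CPM, which is not divided by length, SPINT2 (211) stood above ST14 (129) in the control. MET (317) stood above ST14 (192) with shRNA 2.

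Against all genes, MACC1 alone among the 8 passed the size rule used here, a fold of at least 2 over the control with both hairpins in the same direction. Of 15132 genes that reached 1 CPM on average over the libraries, 5.29% were higher by this rule and 4.5% lower (800 and 681 genes, or 1030 and 553 with library totals as the scaling). Of the 7 members that passed the filter, 1 was higher, 0 were lower and 6 were neither. The 7 members passed through their own levels and cannot be read as a sample of the axis. ST14 passed 2-fold with shRNA 1 only, as did 7.92% of all genes in the upward direction with that hairpin, whatever they did with shRNA 2.

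**Figure D3:**
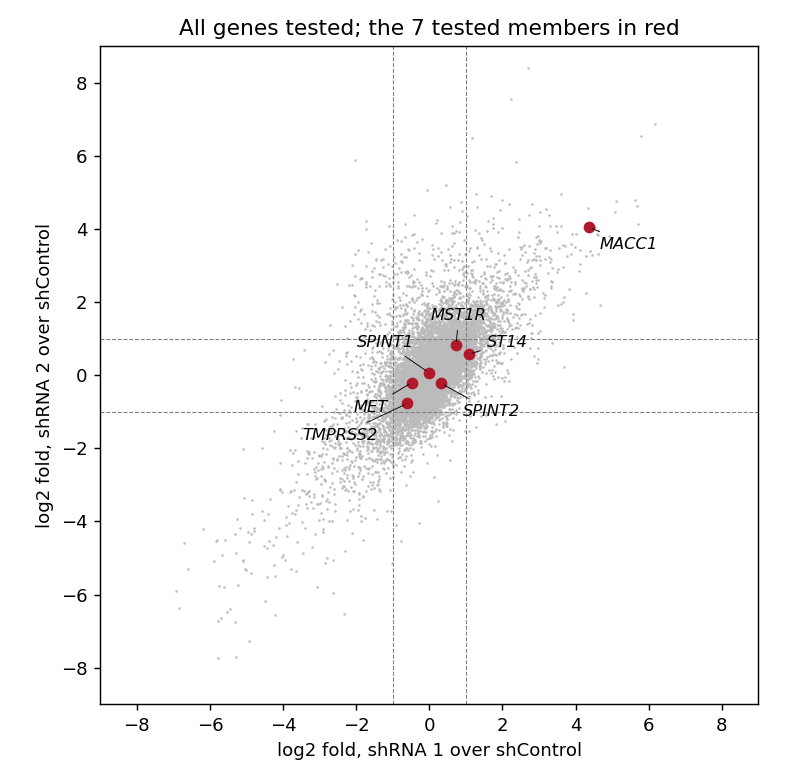
log2 fold over the control of 15132 genes (grey points), with shRNA 1 on the x axis and shRNA 2 on the y axis, and 7 genes of the MET axis in red. MACC1 stands apart at 4.36 and 4.05, and the other 6 genes lie between −0.78 and 1.09 on either axis. The control library is shared by both axes, so the slope of the cloud is not a result.

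The genes whose pair of folds lay nearest to that of MACC1 were sought over all genes tested, by the Euclidean distance between the log2 folds of shRNA 1 and shRNA 2. The nearest was MUC16, a large membrane mucin, at a distance of 0.17 and with 102, 2828 and 1940 counts. It was followed by FGFBP1, a carrier protein of fibroblast growth factors (61, 1789 and 1032 counts), SCNN1A, a subunit of the epithelial sodium channel (32, 968 and 546), FUT9, a fucosyltransferase (14, 301 and 260), and ALPP, the placental alkaline phosphatase (136, 2451 and 2268). Only 6 genes lay within a distance of 0.5 of MACC1. Within the same distance of MET lay 3435 genes, the nearest being MAPRE3, ELF4, POFUT1, NR1I3 and AMDHD2, at 0.02 or less, so the pattern of MET was a common one. Likeness over 2 folds that share a control describes these libraries and says nothing of a shared control of the genes.

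The chromosomal surroundings of MACC1 and MET, both on chromosome 7, are described next. Within 1 Mb of MACC1, 5 other genes passed the filter, and 4 of them were higher by the size rule, against 5.29% of all genes. Of the 4, SP8, AC005083.1 and CTA-293F17.1 were under 1 CPM in the control and passed the filter only through the hairpin libraries. Their count is therefore a description and cannot be set against that share as a result. ITGB8, which encodes the integrin subunit beta 8 and starts 113 kb from the start of MACC1 (chromosome 7, 20330702 to 20415754), had 202, 2371 and 1990 counts, 9.92-fold (interval 8.59 to 11.5) and 8.66-fold (7.49 to 10.1) above the control. SP8, a zinc-finger transcription factor gene of limb and brain development that starts 569 kb away (20782283 to 20786886), had 12, 128 and 261 counts, 9.01-fold (4.99 to 17.9) and 19.1-fold (10.8 to 37.5) above it.

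The others were non-coding genes with clone names, which are given here although they were chosen after their values were seen. AC005083.1 starts 173 bases from the first base of MACC1 and is read in the opposite direction (20217577 to 20221700), so that its first bases lie within the MACC1 promoter window printed above. It had 3, 70 and 40 counts, ratios of 19.7 (interval 6.48 to 97.9) and 11.7 (3.73 to 59.3). CTA-293F17.1, which overlaps the start of ITGB8 on the other strand and may share reads with it, had 10, 29 and 42 counts, ratios of 2.45 (1.16 to 5.64) and 3.69 (1.82 to 8.26). On the other side of MACC1, TWISTNB, a subunit gene of RNA polymerase I that starts 508 kb away, had 514, 742 and 687 counts and was not past the size rule, with ratios of 1.22 (1.09 to 1.37) and 1.18 (1.05 to 1.32). A further 18 genes in this window were under the filter, 11 of them with no count in any library.

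Around MET none of 5 tested neighbours passed the size rule. CAPZA2, a subunit of the actin capping protein whose gene starts 139 kb from MET, had ratios of 0.907 (interval 0.855 to 0.961) and 0.755 (0.710 to 0.804). CAV1, which encodes caveolin 1, had 5875, 7150 and 3904 counts, near the control with shRNA 1 (ratio 1.03, interval 0.993 to 1.06) and below it with shRNA 2 (0.584, interval 0.561 to 0.609). CAV2, TES and ST7 had ratios between 0.697 and 1.04. The median log2 folds of the 5 genes were −0.06 and −0.30, beside 2.99 and 2.94 for the 5 around MACC1 and 0.01 and 0.04 for all genes. Most of the genes around MACC1 passed the filter only through the hairpin libraries, so their medians are high in part by selection. DNA copy number and chromatin at these loci were not measured, and their part was not tested.

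**Figure D4:**
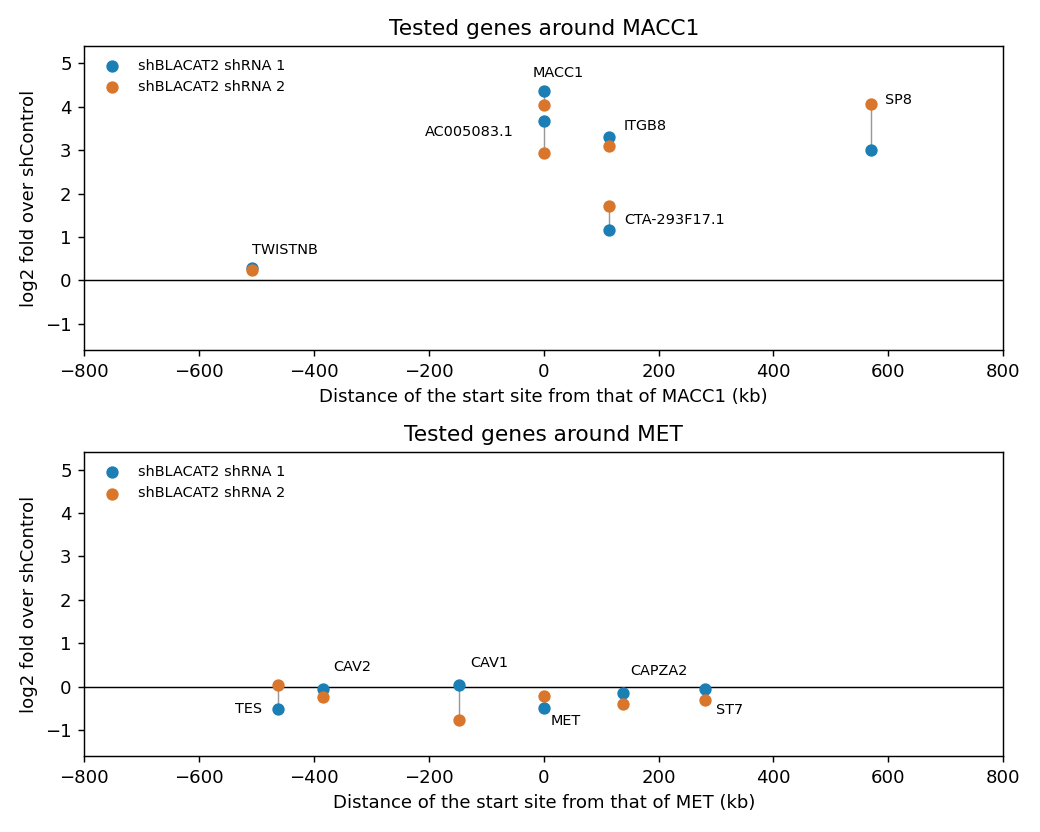
log2 fold over the control of each tested gene within 1 Mb of MACC1 (top) and MET (bottom), against the distance of its start site in kb, with 1 point per hairpin library. Above, all genes but TWISTNB lie above 1 with both hairpins, and below, all points lie between −0.78 and 0.05.

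Other genes of the pathway were read from 11 lists written from textbook knowledge with earlier results of these data known, 152 genes in all. The filter was passed by 124, of which 17 were higher and 13 lower by the size rule (24.2% past it, against 9.79% of all genes, a difference that supports nothing because the lists were chosen with results known). edgeR's quasi-likelihood test of both hairpin libraries against the control called 0 of the 124 at an adjusted p under 0.05, where 0.0397% of all genes were called. At an unadjusted p under 0.05 it gave 32 of them (10.2% of all genes), and DESeq2 called 22 after adjustment (3.51% of all genes). edgeR's test has 1 residual degree of freedom, the spread between the hairpins, and takes the single control to be as variable as they are. These libraries carry different hairpins and the labels name no repeated cultures, so this spread mixes differences between hairpins, lines and library preparation, which cannot be told apart.

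Downstream of the receptor are the adaptors and effectors that carry the MET signal. Of 22 genes, 0 passed the size rule in either direction, beside 9.79% of all genes. With so few genes this is not read as a difference from that share. The medians were −0.08 and −0.16 on the log2 fold scale. PTPN11, the phosphatase SHP2 that works with the docking protein GAB1, had log2 folds of 0.02 and −0.17, and the small GTPase gene RAC1 −0.32 and −0.59. DESeq2 and edgeR called 0 of the 22 after adjustment, and at an unadjusted p under 0.05 edgeR gave 0.

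Of 17 co-receptors and partner receptors, 0 were higher and 2 lower by the size rule, beside 5.29% and 4.5% of all genes. SDC2, a heparan sulfate proteoglycan of the kind that presents growth factors, was lower (225, 37 and 26 counts, log2 folds −2.78 and −3.20). So was NRP2, a neuropilin (870, 182 and 267 counts, −2.49 and −1.88). The list medians were −0.63 with shRNA 1 and 0.09 with shRNA 2. Among 15 measured genes of MET turnover, 1 was higher and 1 lower, or 6.67% each, which is near the shares of all genes. CBLC, an epithelial member of the CBL ubiquitin ligases, had 18, 134 and 135 counts (2.54 and 2.61), while CBL itself, the ligase known to mark MET for degradation and named here after its values were known, had 3571, 3392 and 3662 counts (−0.32 and −0.15). SH3KBP1, the CBL-binding adaptor CIN85 of receptor endocytosis, had 3429, 1291 and 1360 counts (−1.65 and −1.52).

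Upstream of the receptor, proteases that act on HGF-family ligands, or on the proteases that cut them, were next. Their list also holds MST1, the gene of the RON ligand, which is part of the counts and medians given here. Of 14 listed genes 7 were measured, with 3 higher and 1 lower by the size rule (5.29% and 4.5% of all genes). The medians were 1.40 and 1.22, in a list chosen with results known. TMPRSS4, a membrane serine protease of the matriptase family, had 98, 2049 and 933 counts (log2 folds 4.12 and 3.04). The kallikrein KLK5 had 323, 2891 and 2369 (2.91 and 2.68). The plasminogen activators stood on opposite sides, PLAT at 3696, 13507 and 9820 counts (1.63 and 1.22) and PLAU, which encodes urokinase, at 6905, 3168 and 1967 (−1.37 and −2.0). HGFAC, the gene of the circulating HGF activator, had 8, 4 and 12 counts and was not tested, and HPN, the gene of hepsin, had 3, 1 and 12.

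Within the family of type II transmembrane serine proteases, 5 of 18 genes were measured. TMPRSS4 was the 1 gene past the size rule, which 9.79% of all genes passed. Of 6 measured Kunitz-domain inhibitors, 1 was lower and 0 were higher (4.5% and 5.29% of all genes). The lower gene was TFPI2, an inhibitor found in the extracellular matrix (1667, 598 and 770 counts, −1.72 and −1.30). Genes listed as partners and substrates of matriptase went both ways, with 2 higher and 3 lower of 9 (5.29% and 4.5% of all genes). The claudin gene CLDN7 had log2 folds of 1.72 and 1.75. F2RL1, the protease-activated receptor PAR2, had 1307, 218 and 519 counts (−2.81 and −1.51). TMEFF1, whose place in this list was not checked, had 68, 27 and 28 (−1.50 and −1.40). Its mean was 2.53 CPM, so with the filter at 5 CPM 2 genes of the list were lower. PRSS8, which encodes prostasin, the protease that works with matriptase on epithelial surfaces, was picked once its values were known, and had 581, 948 and 2043 counts (0.46 and 1.63).

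Transcription factors reported at the MACC1 or MET promoter, with SH3BP4, the nearest relative of MACC1, made up a list of 16 measured genes. Of these, 3 were higher and 2 lower by the size rule (5.29% and 4.5% of all genes). JUN, an AP-1 subunit, had 2704, 989 and 842 counts (log2 folds −1.69 and −1.87), and ETS1 had 6755, 2778 and 2870 (−1.52 and −1.42). CEBPA had 21, 83 and 150 counts (1.66 and 2.55) and MITF 319, 1393 and 1007 (1.88 and 1.47). SP1 and SH3BP4, picked once their values were known, were not past the size rule, at 0.62 and 0.43 and at −0.52 and 0.05. Of 12 epithelial transcription factors and splicing regulators, 5 were higher and 0 lower by the size rule, which 5.29% and 4.5% of all genes passed in these directions. GRHL3 had 74, 898 and 771 counts, ELF3 373, 3083 and 2542, EHF 553, 2409 and 2648, and GRHL1 191, 620 and 545. Of the fibroblast markers, COL1A2 (16, 0 and 1 counts) and COL3A1 (20, 0 and 1) were too low to be tested. FAP (102, 8 and 21) and PDGFRB (152, 15 and 31) passed the filter and were lower with both hairpins. DCN (2, 2 and 1) and THY1 (2, 2 and 5) were not lower with both. These are transcripts of 1 cell line, and their part in these differences was not tested.

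**Figure D5:**
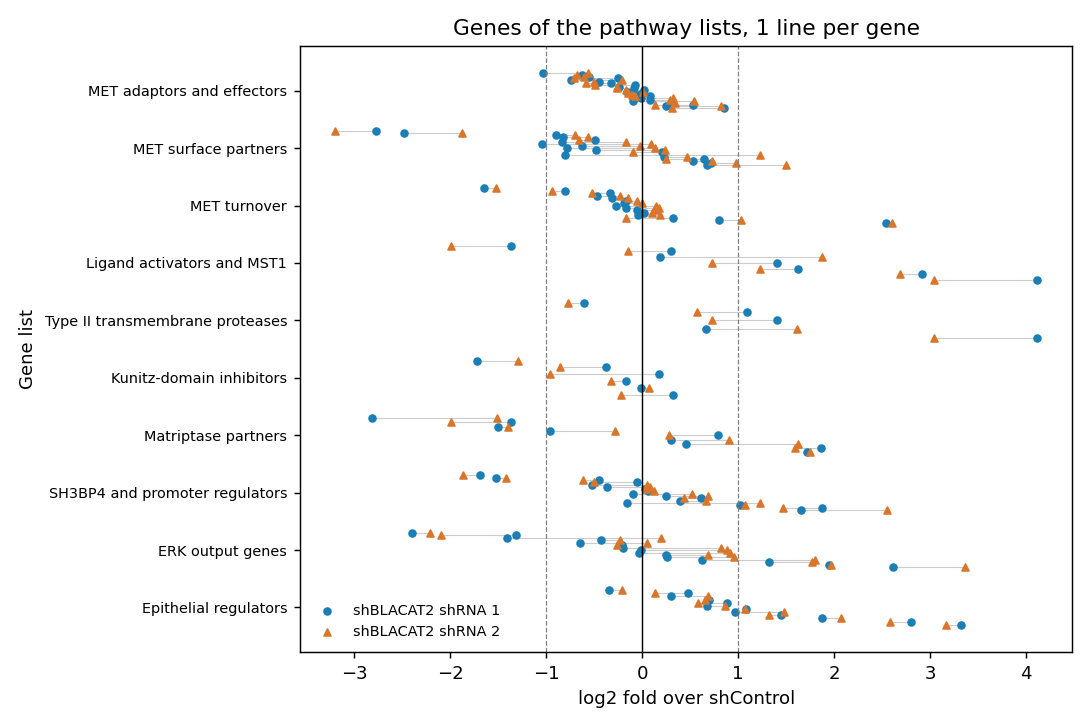
log2 fold over the control for each measured gene of 10 of the 11 lists, with a circle for shRNA 1 and a triangle for shRNA 2 joined by a line, and dashed lines at 2-fold. Adaptors and effectors of MET lie between the dashed lines except for 1 point of shRNA 1 (SRC, −1.04). The list of ligand activators and MST1 reaches 4.12 (TMPRSS4).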

How the data were processed

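RNA sequencing was done on 3 libraries of UM-UC-3 cells. Per the file headers, the deposited table holds the authors' read counts per gene and the authors' FPKM values, with 1 column of each per library. TopHat2 2.0.9 and the build hg38 are named in the submitters' processing notes. How reads were counted (tool, strand, annotation, filters) is not given in the sources used here, so overlapping and antisense genes are uncertain. A record broken over 4 lines was left out. Counts were scaled with TMM in edgeR 4.0.16 (factors 0.924, 1.02 and 1.06), genes averaging 1 CPM or more were kept, and log2 folds used a prior count of 2. edgeR's quasi-likelihood test ran over all 15132 genes with Benjamini-Hochberg adjustment. DESeq2 1.42.0 and limma 3.58.1 were alternatives. The fit was tested on simulated counts. Gene types, strands and overlaps come from GENCODE release 29, promoters from RefSeq. Members and lists were chosen with earlier results of these data known. Named were the 8 genes, LINC00958, per list up to 4 genes past the size rule with the largest smaller fold (otherwise the 2 of highest mean CPM), neighbours past the size rule and the 5 genes nearest to MACC1 and MET. Clone-named features were skipped, except 2 neighbours of MACC1 chosen after their values were seen, and 1 list and 1 further gene, which are in the totals, are not reported here.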

Additional observations from a re-analysis of the deposited data

How the results depend on the processing

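The mean log2 fold of MACC1 lay between 4.05 and 4.37 and that of MET between −0.49 and −0.18 over DESeq2's size factors, library totals, a prior count of 0.5, FPKM plus 0.1 and each hairpin alone. With library totals and with FPKM plus 0.1, values moved by more than 1 SD between the hairpins for MST1R (0.94 and 0.92, from 0.77), TMPRSS2 (−0.53 and −0.41, from −0.69) and SPINT1 (0.20 and 0.20, from 0.03). The number of genes past the size rule, 1481, was 2805 without the filter on low values, 979 with the filter at 5 CPM and 396 at a 4-fold threshold, and between 2315 and 3287 with 1 hairpin left out. Of the list genes, 9 passed at 4-fold in place of 30. Of the neighbours, 2 in place of 4 passed with the filter at 5 CPM, both near MACC1. edgeR called 6 of all genes, DESeq2 531, and 0 were called by limma (1560 at an unadjusted p under 0.05), by edgeR without the filter (1461) and by edgeR with the filter at 5 CPM (1240). DESeq2 called 22 list genes and edgeR 0 (32 unadjusted). Fewer or more genes tested is part of each filter setting, and for the other settings the cause was not tested. No paired analysis was possible because the control has 1 library and its label carries no replicate number. The single control cannot be left out, and its own spread is unknown. Depth limits TMPRSS2, HGF, SP8 and AC005083.1, whose low counts give wide intervals or no fold.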

Other observations

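Genes that ERK signalling induces or that damp it, a readout on which MET and other receptors converge, went in both directions. Of 15 measured, 3 were higher and 2 lower by the size rule (5.29% and 4.5% of all genes), with medians of −0.03 and 0.82. PHLDA1 had 107, 788 and 1273 counts (log2 folds 2.62 and 3.37), EGR1 133, 611 and 597 (1.94 and 1.97) and MYC 646, 1915 and 2509 (1.32 and 1.77), while IER3 had 2298, 513 and 562 (−2.40 and −2.21). DUSP6, the phosphatase that switches ERK off, was picked once its values were known, with 243, 114 and 63 counts (−1.32 and −2.10). edgeR called 0 of the 15 after adjustment and DESeq2 4, and edgeR gave 5 at an unadjusted p under 0.05.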
